A study of Mus musculus with 4 samples.

Results

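The clustered protocadherins of the mouse were followed in RNA-seq of heart cells, gene by gene and library by library. The members were chosen by their symbol (Pcdha, Pcdhb or Pcdhg) and by their place on chromosome 18, which gave 57 of the 16383 genes in the deposited count table. They fall into an alpha cluster of 13 genes, a beta cluster of 22 genes and a gamma cluster of 22 genes. The family was put forward for description with results of this hairpin contrast already known, so its calls describe these libraries and are not independent evidence that it changed.

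The cells were primary cardiac fibroblasts, the matrix-producing cells of the heart, from wild-type mice 3 months old. Every sample had received MGT, the reprogramming factors Mef2c, Gata4 and Tbx5 that drive fibroblasts towards induced cardiomyocytes, and was collected on day 7. The group MGT+shNr4a3 also carried a short hairpin against Nr4a3, an orphan nuclear receptor, and the group MGT+shNT carried a non-targeting hairpin. Each group had 2 libraries. The labels do not say that they came from separate cultures or animals, so p-values measure only the spread between these libraries, which may be technical. Every sample shared MGT, so fibroblasts without the factors are not part of the comparison.

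Clustered protocadherins are cell-surface adhesion proteins that bind the same isoform on a neighbouring cell. In the nervous system each neuron switches on a small set of them from separate promoters, and the combination lets a neuron tell its own branches from those of other cells. In the alpha and gamma clusters each member has its own large variable exon, which encodes the outer domains, the membrane span and the start of the inner part. That exon is spliced to a common set of constant exons that encode the rest of the inner part. Beta genes have a single-exon coding region and no constant exons. Promoter choice depends in neurons on the insulator protein Ctcf, on cohesin and on DNA methylation. The C-type members at the end of the alpha and gamma clusters are regulated differently from the others.

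The deposited table held between 28220440 and 30976450 counts per library. CPM are counts per 1000000 of a library's total over genes that passed the low-count filter, after that total was multiplied by its TMM normalisation factor. On this scale 1 count was worth 0.0326 to 0.0350 CPM. The hairpin target was reduced: Nr4a3 had 18 and 32 counts in MGT+shNr4a3 and 356 and 353 counts in MGT+shNT, a log2 fold change of -3.86 with an SE of 0.27 (edgeR adjusted p = 2.65e-06). The contrast was broad. Of 10736 genes that passed the low-count filter, 60.2% were called at an adjusted p below 0.05 by edgeR's quasi-likelihood test, 30.7% as higher and 29.4% as lower, and the median log2 fold change was 0.02. The libraries of a pair differed by more than counting noise, with a chi-square per degree of freedom of 22.1 in MGT+shNr4a3 and 10.6 in MGT+shNT. Among markers of other cells, the 10 neuronal markers in the table summed to 183 to 217 CPM in MGT+shNr4a3 and 69.2 to 70.1 CPM in MGT+shNT. Of the 5 that could be tested, the neurofilaments Nefm and Nefl, the growth-cone gene Gap43 and the microtubule gene Map2 were called higher and Uchl1 lower. The defining neuronal genes Rbfox3, Snap25, Syt1, Stmn2 and Elavl4 had 0 to 16 counts in any library, and no listed marker was at 0 in all of them. Glial markers summed to 5.54 to 5.66 CPM in MGT+shNr4a3 and 9.03 to 9.25 CPM in MGT+shNT. All 10 fibroblast markers were detected. Of them 6 were called lower, among them Tcf21 and Pdgfra, and 2 higher, Fn1 and Lum. The fibroblast markers summed to 20120 to 21930 CPM in MGT+shNr4a3 and 16000 to 17510 CPM in MGT+shNT. Fn1 alone averaged 13360 CPM in MGT+shNr4a3 and 5566 CPM in MGT+shNT. The part of these other markers in the protocadherin result was not tested. In bulk RNA, more cells of a type and more RNA per cell cannot be told apart.

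On build mm10 all members lie on the plus strand of chromosome 18. The alpha cluster spans 36930184 to 37187661, the beta cluster 37264938 to 37524479 and the gamma cluster 37661793 to 37841873. The 13 alpha genes share constant exons at 37156155 to 37156213, 37159265 to 37159353 and 37184946 to 37187657, together 2860 bases. The 22 gamma genes share constant exons at 37825021 to 37825079, 37833265 to 37833353 and 37839903 to 37841870, together 2116 bases. Beta genes share 0 bases of this kind, and their length is 2588 to 8695 bases each. A read in a constant exon was counted for every member of its cluster, as the counts show. In MGT+shNr4a3 replicate 1 the lowest gamma count was 10204, for Pcdhgb8, and the second highest was 10681, for Pcdhga11. In MGT+shNT replicate 1 those ends were 2711, for Pcdhgb8, and 2961, for Pcdhgb2. Pcdhgc3 stood apart as the highest, with 19870 and 6592 counts in these libraries. Alpha counts ran from 108 to 135 in MGT+shNr4a3 replicate 1 and from 44 to 70 in MGT+shNT replicate 1. Apart from Pcdhgc3, the gamma counts as deposited are therefore close to 1 repeated measurement. The alpha counts also repeat their shared reads, with a wider relative spread. For these clusters the lowest member's count in a library was taken as the shared reads, and each member's excess over it as an estimate of the reads from its own variable exon. The estimate leaves out any own reads of the lowest member, and it can hold reads of an antisense gene or of a neighbour whose exons overlap. Such overlaps cover 1038 bases between Pcdhgb1 and Pcdhga4 and 108 bases between Pcdhgb4 and Pcdhga8.

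Beta genes were mostly higher in MGT+shNr4a3. The 22 beta counts summed to 79.2 and 88.9 CPM in the MGT+shNr4a3 libraries and to 32.9 and 32.5 CPM in the MGT+shNT libraries, 2.57-fold higher in the mean. Of the 22 genes, 17 passed the low-count filter. Of these, 12 were called higher, 0 lower and 5 were not called, with a median log2 fold change of 1.44. Over all genes tested 30.7% were called higher. As 6 of the 17 passed the filter through their MGT+shNr4a3 counts alone, the fit without a filter is the fuller count: it also called 12 of the 22 beta genes higher, beside 24.3% of all genes in that fit. DESeq2 called 8 higher, beside 24.1% of all genes. Normalised counts of the libraries did not overlap for 15 of the 22 beta genes, all higher in MGT+shNr4a3, and overlapped for 7. Of all genes tested, 41.1% were higher with no overlap. The 15 include Pcdhb10, which failed the filter, whereas the 41.1% covers only genes that passed it.

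**Figure D1:**
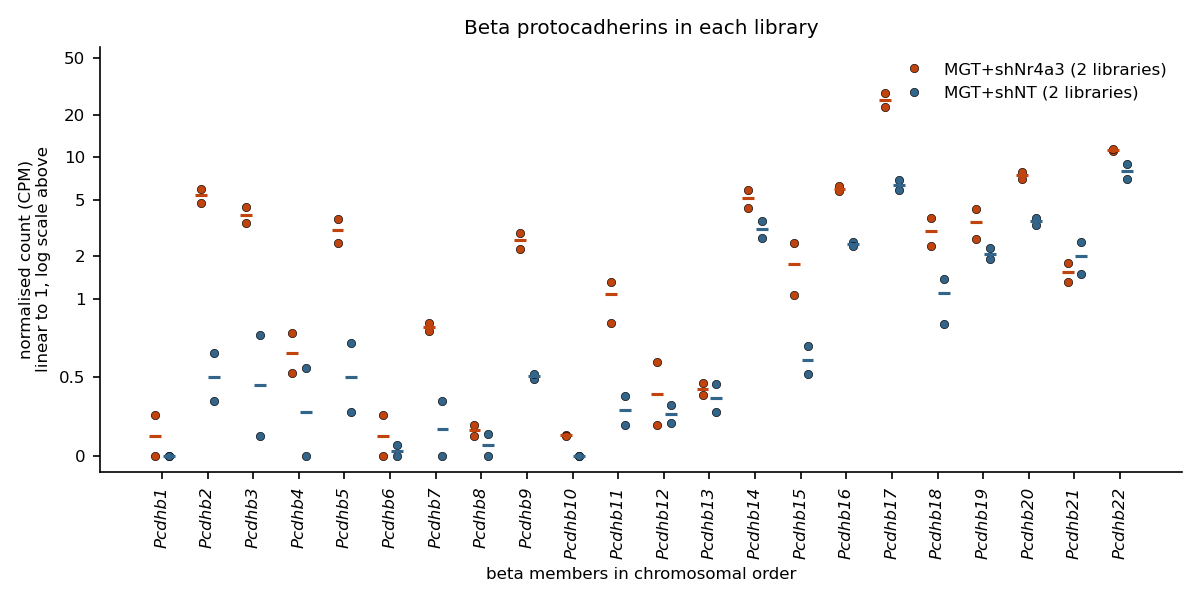
Normalised counts (CPM, linear up to 1 and on a log scale above) of the 22 beta protocadherins in chromosomal order; each point is 1 library, MGT+shNr4a3 on the left and MGT+shNT on the right of each gene, and bars are group means (n = 2 each). Pcdhb17 is the highest in MGT+shNr4a3, and Pcdhb2 to Pcdhb11 sit below 1 CPM in every MGT+shNT library.

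Pcdhb17 was the most abundant beta gene per kilobase by the mean of either group. In MGT+shNT replicate 2 alone, Pcdhb22 stood above Pcdhb17, at 1.36 against 1.26 CPM per kilobase. Pcdhb17 lies at 37484795 to 37489454. It had 683 and 869 counts in MGT+shNr4a3 and 196 and 179 counts in MGT+shNT, which is 25.5 ± 4.02 CPM in MGT+shNr4a3 and 6.36 ± 0.712 CPM in MGT+shNT (SD, n = 2 each). Both MGT+shNr4a3 libraries lay well above both MGT+shNT libraries, with a log2 fold change of 2.00 with an SE of 0.16 (edgeR adjusted p = 6.29e-06). Its part of all beta counts was 28.6% and 31.9% in MGT+shNr4a3 and 20.9% and 18.01% in MGT+shNT, so it took a larger part of a larger total. Pcdhb22 showed the other side of this shift. It had 334 and 350 counts in MGT+shNr4a3 and 201 and 274 counts in MGT+shNT, a log2 fold change of 0.49 with an SE of 0.17 (edgeR adjusted p = 0.0321), and its part of the beta counts was 13.4% ± 0.806 in MGT+shNr4a3 and 24.5% ± 4.37 in MGT+shNT (SD, n = 2 each). The libraries did not overlap in either measure. The Pcdhb22 call was lost without MGT+shNr4a3 replicate 2 (adjusted p = 0.0798) and without MGT+shNT replicate 1 (adjusted p = 0.219).

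The largest folds among called beta genes belonged to members at the upstream end of the cluster. Pcdhb2, at 37294812 to 37297624, had 144 and 184 counts in MGT+shNr4a3 and 10 and 20 counts in MGT+shNT. The libraries were far apart, with a log2 fold change of 3.40 with an SE of 0.37 (edgeR adjusted p = 4.87e-05). Per kilobase it held rank 3 of the beta genes in MGT+shNr4a3 and rank 10 in MGT+shNT. Pcdhb3 had 103 and 137 counts in MGT+shNr4a3 and 22 and 4 counts in MGT+shNT, a log2 fold change of 3.14 (edgeR adjusted p = 0.00121). Pcdhb5 had 110 and 76 counts in MGT+shNr4a3 and 8 and 22 counts in MGT+shNT, a log2 fold change of 2.59 (edgeR adjusted p = 0.00153). Pcdhb9 had 68 and 90 counts in MGT+shNr4a3 and 14 and 16 counts in MGT+shNT, a log2 fold change of 2.34 (edgeR adjusted p = 0.00103). In each of these 3 genes the lowest MGT+shNr4a3 library stood above the highest MGT+shNT library, and each kept its call with any 1 library left out. The size of 2 of these folds depended on the low MGT+shNT counts: that of Pcdhb3 was 4.85 without MGT+shNT replicate 1 and 2.35 without MGT+shNT replicate 2, and that of Pcdhb5 was 3.43 without MGT+shNT replicate 2. Pcdhb11 was lower in abundance, with 40 and 26 counts in MGT+shNr4a3 and 11 and 6 counts in MGT+shNT. Its log2 fold change of 1.89 (edgeR adjusted p = 0.0230) missed the threshold without MGT+shNr4a3 replicate 1 (adjusted p = 0.166) and without MGT+shNT replicate 2 (adjusted p = 0.168).

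Called members downstream of Pcdhb11, other than Pcdhb17, had smaller folds. Pcdhb16 had 174 and 192 counts in MGT+shNr4a3 and 72 and 72 counts in MGT+shNT, and Pcdhb20 had 211 and 243 counts in MGT+shNr4a3 and 106 and 102 counts in MGT+shNT. Their log2 fold changes were 1.30 (edgeR adjusted p = 0.00106) and 1.08 (edgeR adjusted p = 0.00155), and both kept their calls with any library left out. Pcdhb18 had 112 and 72 counts in MGT+shNr4a3 and 24 and 42 counts in MGT+shNT, a log2 fold change of 1.44 (edgeR adjusted p = 0.0123). Pcdhb15 had 32 and 76 counts in MGT+shNr4a3 and 20 and 16 counts in MGT+shNT, and Pcdhb14 had 178 and 134 counts in MGT+shNr4a3 and 102 and 82 counts in MGT+shNT. Their log2 fold changes were 1.53 (edgeR adjusted p = 0.0341) and 0.71 (edgeR adjusted p = 0.0437). The calls of these 3 genes were less secure than those of Pcdhb16 and Pcdhb20. That of Pcdhb18 was lost without MGT+shNr4a3 replicate 1 (adjusted p = 0.102) and without MGT+shNT replicate 1 (0.0532), and that of Pcdhb14 without MGT+shNr4a3 replicate 1 (0.241) and without MGT+shNT replicate 2 (0.188). That of Pcdhb15 was lost without MGT+shNr4a3 replicate 2 (log2 fold change 0.78, adjusted p = 0.402), without MGT+shNT replicate 1 (0.0545) and without MGT+shNT replicate 2 (0.126). DESeq2 did not call Pcdhb11, Pcdhb14, Pcdhb15 or Pcdhb22.

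Among tested members that were not called, Pcdhb19 had 80 and 132 counts in MGT+shNr4a3 and 65 and 58 counts in MGT+shNT, a log2 fold change of 0.74 (edgeR adjusted p = 0.0822). It was called when MGT+shNr4a3 replicate 1 was left out (1.05, adjusted p = 0.0250). Pcdhb21, the tested beta gene with a negative fold, had 40 and 55 counts in MGT+shNr4a3 and 43 and 77 counts in MGT+shNT, a log2 fold change of -0.37 (edgeR adjusted p = 0.452). The libraries of Pcdhb21 overlapped, and its exons overlap those of Pcdhb22, so the reads of this pair are uncertain. Pcdhb4, Pcdhb7 and Pcdhb13 had 12 to 26 counts per MGT+shNr4a3 library and 0 to 16 per MGT+shNT library, and were not called, although without MGT+shNT replicate 1 Pcdhb4 and Pcdhb7, whose MGT+shNT count is then 0, were (adjusted p = 0.0122 and 0.00579). Pcdhb1, Pcdhb6, Pcdhb8, Pcdhb10 and Pcdhb12 did not pass the filter. They had 0 to 18 counts per MGT+shNr4a3 library and 0 to 10 per MGT+shNT library, which is too few to place them.

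Among the beta genes log2 fold change tended to fall along the chromosome. Over the 17 tested genes Spearman's rho between order and log2 fold change was -0.72, and over all 22, fitted without a filter, it was -0.69. Of the 17, Pcdhb3, Pcdhb4, Pcdhb5, Pcdhb7, Pcdhb11 and Pcdhb13 passed the filter through MGT+shNr4a3 counts alone, and all but Pcdhb13 lie upstream of Pcdhb12. Among genes added to reach 22, Pcdhb1 and Pcdhb10, which lie there too, had log2 fold changes of 5.01 and 5.02 on 0 MGT+shNT counts. How far rho rests on these genes was not tested. Between mean CPM over all libraries and log2 fold change, rho was -0.06 over the 17 genes and -0.23 over all 22. Against mean MGT+shNT CPM, which is also the base of each fold, it was -0.43 over all 22. These are descriptions: the genes share the same 4 libraries, and neighbouring genes are not independent. Counted over the first 11 genes, Pcdhb1 to Pcdhb11, the reads summed to 17.1 and 19.1 CPM in MGT+shNr4a3 and 3.40 and 2.23 CPM in MGT+shNT, 6.44-fold higher. Over Pcdhb12 to Pcdhb22 they summed to 62.1 and 69.7 CPM in MGT+shNr4a3 and 29.5 and 30.3 CPM in MGT+shNT, 2.20-fold higher. The upstream genes therefore made up 21.5% and 21.5% of the beta counts in the MGT+shNr4a3 libraries and 10.3% and 6.84% in the MGT+shNT libraries.

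The gamma cluster was the most abundant of the 3. Its shared reads were 10204 and 9859 counts in MGT+shNr4a3 and 2711 and 3077 counts in MGT+shNT, or 329.5 ± 11.9 CPM in MGT+shNr4a3 and 97.8 ± 4.06 CPM in MGT+shNT (SD, n = 2 each). The libraries of a group lay close together and the groups far apart. The log2 fold change was 1.75 with an SE of 0.08 (edgeR adjusted p = 2.53e-07), and it stayed between 1.70 and 1.80 with any 1 library left out. All 22 gamma genes were called higher on their deposited counts, with log2 fold changes from 1.54 to 1.77, beside 30.7% of all genes. Those calls rest largely on the same reads and count as 1 observation. Reads in the constant exons also entered 3 long predicted transcripts that run from the alpha into the gamma cluster. Gm42416 had 5484 and 5477 counts in MGT+shNr4a3 and 1484 and 1753 counts in MGT+shNT, and Gm37013 and Gm37388 had the same values as each other, 999 and 960 in MGT+shNr4a3 and 313 and 355 in MGT+shNT.

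**Figure D2:**
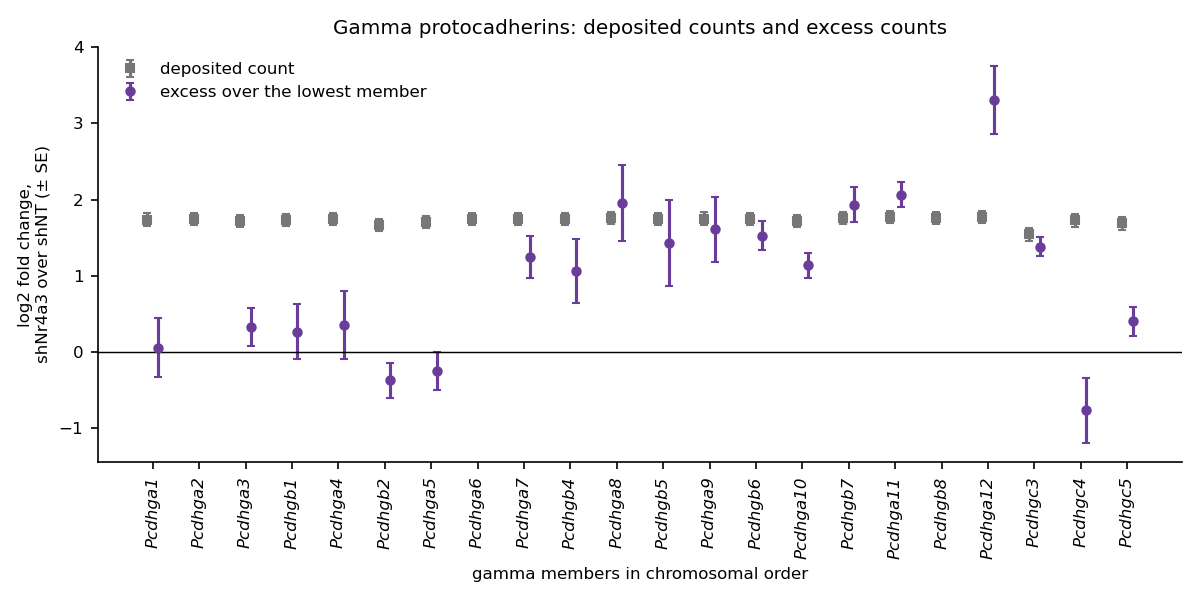
Log2 fold changes, MGT+shNr4a3 over MGT+shNT, of the 22 gamma protocadherins in chromosomal order, from deposited counts (grey squares) and from the excess over the lowest member (purple circles). Bars are a standard error derived from the F statistic of edgeR, and the 3 members with too few excess counts have no circle. Deposited counts give 1.54 to 1.77 for every gene, and excess counts -0.76 to 3.31.

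The members separated once the shared reads were taken out. Of the 22 gamma genes, 19 had enough excess counts to be tested. In that fit 9 were called higher, 0 lower and 10 were not called, where 30.5% of all genes were called higher. Of these 19, Pcdhgb5 and Pcdhga12 passed the filter through their MGT+shNr4a3 counts alone, and Pcdhga12 is among the 9. Without a filter 11 of the 22 were called higher, beside 24.4% of all genes. One of the added calls, Pcdhgb8, rests on 1 library and on its being the lowest member in the others, and the other is Pcdhgb5. DESeq2 called 9 higher, beside 24.0% of all genes.

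The C-type genes showed very different levels. Pcdhgc3, the gamma isoform known for broad expression outside neurons, held most of the excess. It had 9666 and 12933 excess counts in MGT+shNr4a3 and 3881 and 4560 in MGT+shNT, or 371 ± 71.5 CPM in MGT+shNr4a3 and 143 ± 9.40 CPM in MGT+shNT (SD, n = 2 each). The log2 fold change was 1.38 with an SE of 0.12 (edgeR adjusted p = 1.52e-05). Per kilobase of variable exon it stood at 94.7 and 124.6 CPM in MGT+shNr4a3 and at 40.2 and 44.1 CPM in MGT+shNT, far above every other gamma member. It made up 77.3% and 78.0% of all gamma excess counts in MGT+shNr4a3 and 71.2% and 72.4% in MGT+shNT. Its exon lies opposite the antisense gene BC037039 over 1559 bases, and the strand setting of the counting is not given in the sources used here, so reads of the antisense partner cannot be told apart. Pcdhgc5 had 273 and 351 excess counts in MGT+shNr4a3 and 198 and 262 in MGT+shNT, a log2 fold change of 0.40 (edgeR adjusted p = 0.0923) that was called without MGT+shNr4a3 replicate 1 (0.56, adjusted p = 0.0297). Pcdhgc4, the isoform known in mice for its need in neuronal survival, had 30 and 47 excess counts in MGT+shNr4a3 and 45 and 83 in MGT+shNT. Its log2 fold change was -0.76 (edgeR adjusted p = 0.153). The highest MGT+shNr4a3 library of Pcdhgc4 lay just below the lowest MGT+shNT library once scaled to depth, at 1.53 against 1.58 CPM. The excess of Pcdhgb2, Pcdhga5 and Pcdhga6 was also lower with no overlap. That of 12 gamma genes was higher with no overlap, beside 41.1% of all genes tested.

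**Figure D3:**
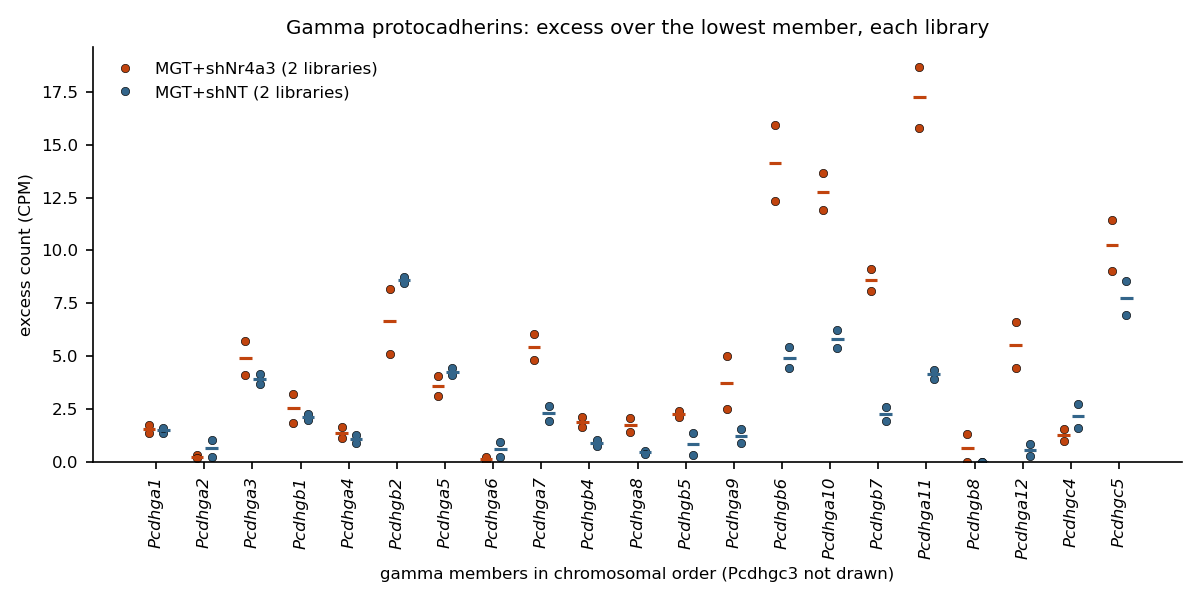
Excess counts over the lowest member (CPM) of 21 gamma protocadherins in chromosomal order, with Pcdhgc3 left out for its scale; each point is 1 library, MGT+shNr4a3 on the left and MGT+shNT on the right of each gene, and bars are group means (n = 2 each). From Pcdhga7 to Pcdhga12 the MGT+shNr4a3 libraries lie above the MGT+shNT libraries in all genes but Pcdhgb8, and from Pcdhga1 to Pcdhga6 they do not.

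Among A-type and B-type genes the difference was held by the downstream members. Pcdhga11 had 477 and 574 excess counts in MGT+shNr4a3 and 124 and 120 in MGT+shNT, a log2 fold change of 2.06 with an SE of 0.17 (edgeR adjusted p = 7.28e-06). Pcdhga12, the last of the A-type genes, had 134 and 203 excess counts in MGT+shNr4a3 and 8 and 25 in MGT+shNT, a log2 fold change of 3.31 with an SE of 0.45 (edgeR adjusted p = 1.96e-04). The groups of both genes did not overlap, but the fold of Pcdhga12 rests on 8 and 25 counts and was 4.28 without MGT+shNT replicate 2 and 2.74 without MGT+shNT replicate 1. Pcdhgb7 had 244 and 280 excess counts in MGT+shNr4a3 and 74 and 59 in MGT+shNT, a log2 fold change of 1.93 (edgeR adjusted p = 8.91e-05). Pcdhgb6 had 373 and 489 excess counts in MGT+shNr4a3 and 155 and 135 in MGT+shNT, a log2 fold change of 1.52 (edgeR adjusted p = 1.22e-04). Pcdhga10 had 360 and 419 excess counts in MGT+shNr4a3 and 154 and 191 in MGT+shNT, a log2 fold change of 1.13 (edgeR adjusted p = 3.38e-04). All 5 of these genes kept their calls with any library left out. The antisense gene Gm26672 lies opposite exons of Pcdhga10, Pcdhgb7, Pcdhga11 and Pcdhga12, but not of Pcdhgb6, and it covers all 2613 variable-exon bases of Pcdhga10. Another antisense gene, Gm37165, lies opposite 536 bases of Pcdhga7 and 416 bases of Pcdhga8. Of the 8 downstream A-type and B-type genes called higher, Pcdhgb6 and Pcdhga9 have no annotated antisense gene opposite their exons. The part of antisense reads in these values was not tested.

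Pcdhga7 had 183 and 148 excess counts in MGT+shNr4a3 and 76 and 59 in MGT+shNT, a log2 fold change of 1.25 (edgeR adjusted p = 0.00347). Pcdhga8 and Pcdhga9 were called on fewer counts, with 42 to 154 per MGT+shNr4a3 library and 11 to 47 per MGT+shNT library. Without MGT+shNr4a3 replicate 2 both missed the threshold, Pcdhga8 at a log2 fold change of 1.65 (adjusted p = 0.0705) and Pcdhga9 at 1.01 (adjusted p = 0.0947), against 1.96 and 1.61 with it. Pcdhgb4 and Pcdhgb5, which lie between the called genes, had log2 fold changes of 1.06 and 1.43 at edgeR adjusted p of 0.0536 and 0.0543, and their libraries did not overlap. Pcdhgb5 was called without MGT+shNT replicate 1 (2.77, adjusted p = 0.00217). Pcdhgb8, which the GENCODE M21 annotation lists as a polymorphic pseudogene, was the lowest gamma count in 3 libraries and had 41 excess counts in the other, MGT+shNr4a3 replicate 2.

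Of the 8 upstream members from Pcdhga1 to Pcdhga6, 6 were tested and 0 were called by edgeR (0 also at an unadjusted p under 0.05, and 0 by DESeq2). Pcdhga3 had 124 and 176 excess counts in MGT+shNr4a3 and 118 and 113 in MGT+shNT, a log2 fold change of 0.33 (edgeR adjusted p = 0.276). Pcdhgb2 was the upstream member with the most reads. It had 154 and 251 excess counts in MGT+shNr4a3 and 250 and 258 in MGT+shNT, a log2 fold change of -0.37 (edgeR adjusted p = 0.190). Without MGT+shNr4a3 replicate 2 Pcdhgb2 was called lower (-0.76, adjusted p = 0.00588). Pcdhga5 had 94 and 125 excess counts in MGT+shNr4a3 and 117 and 135 in MGT+shNT, with a log2 fold change of -0.24 (edgeR adjusted p = 0.425). Pcdhga1, Pcdhgb1 and Pcdhga4 had log2 fold changes of 0.06, 0.27 and 0.35 in overlapping libraries. Pcdhga2 and Pcdhga6 had 0 to 9 excess counts per MGT+shNr4a3 library and 7 to 32 per MGT+shNT library and did not pass the filter. Pcdhga6 was itself the lowest gamma count in MGT+shNr4a3 replicate 2, so its excess there is 0 by definition. Its log2 fold change was -7.18 without MGT+shNr4a3 replicate 1 and -3.01 without MGT+shNT replicate 1. Both values rest on that 0, and no change of Pcdhga6 can be read from them.

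Summed over the members from Pcdhga1 to Pcdhga6, the excess was 17.7 and 24.2 CPM in MGT+shNr4a3 and 22.3 and 23.0 CPM in MGT+shNT, and the libraries overlapped. Summed from Pcdhga7 to Pcdhga12, it was 66.3 and 81.8 CPM in MGT+shNr4a3 and 24.2 and 22.5 CPM in MGT+shNT, 3.16-fold higher. This boundary was placed after the values were seen. Without any boundary, Spearman's rho between chromosomal order and log2 fold change of the excess was 0.84 over the 16 tested A-type and B-type genes and 0.85 over all 19 fitted without a filter. The rho between mean excess over all libraries and log2 fold change was 0.09 over the same 16. Of the 16, Pcdhgb5 and Pcdhga12, both downstream, passed the filter through MGT+shNr4a3 counts alone. The 19 also hold Pcdhgb8, downstream, whose fold rests on 1 library. As for the beta genes these are descriptions of 4 shared libraries. The direction along the chromosome was opposite in the 2 clusters: the folds were larger upstream in beta and larger downstream in gamma.

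The reads of variable exons were also set against the shared reads of the constant exons. For each shared gamma read there were 0.947 and 1.31 excess reads of Pcdhgc3 in MGT+shNr4a3 and 1.43 and 1.48 in MGT+shNT. For the other 21 gamma members together there were 0.278 and 0.370 in MGT+shNr4a3 and 0.580 and 0.565 in MGT+shNT. All variable exons summed per kilobase gave 0.797 and 1.09 times the shared level per kilobase in MGT+shNr4a3 and 1.32 and 1.33 times in MGT+shNT. The libraries did not overlap in any of the 3 ratios, although MGT+shNr4a3 replicate 2 lay nearer to MGT+shNT than replicate 1 did. With 2 libraries against 2 an exact two-sided permutation test cannot go below p = 0.333, and whether the ratios differ between the groups was not tested.

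Alpha genes were scarce. The shared alpha reads were 108 and 177 counts in MGT+shNr4a3 and 44 and 76 counts in MGT+shNT, or 4.67 ± 1.55 CPM in MGT+shNr4a3 and 2.01 ± 0.669 CPM in MGT+shNT (SD, n = 2 each). The libraries did not overlap, but those of a group differed widely. The log2 fold change was 1.21 with an SE of 0.34 (edgeR adjusted p = 0.0134), and the call was lost without MGT+shNr4a3 replicate 2 (0.82, adjusted p = 0.0840) and without MGT+shNT replicate 1 (0.90, adjusted p = 0.0543). All 13 alpha genes were called higher on their deposited counts, with a median log2 fold change of 1.22, beside 30.7% of all genes. Those calls repeat the shared reads. Without MGT+shNr4a3 replicate 2 only Pcdha5 kept its call, and without MGT+shNT replicate 1 8 genes did.

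**Figure D4:**
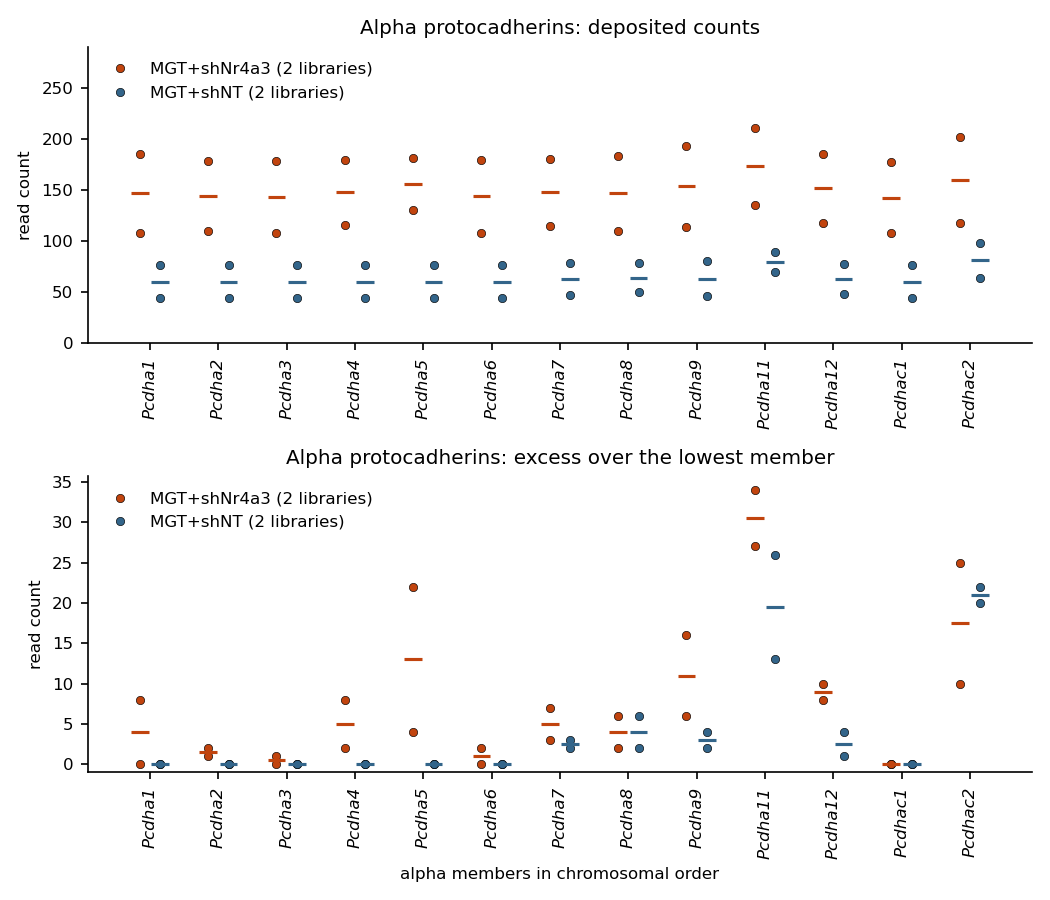
Read counts of the 13 alpha protocadherins in chromosomal order, as deposited (upper panel) and as the excess over the lowest member of the cluster in each library (lower panel); each point is 1 library, MGT+shNr4a3 on the left and MGT+shNT on the right of each gene, and bars are group means (n = 2 each). Deposited counts form 1 nearly level line per library, and no excess passes 34 counts.

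The alpha excess counts summed to 94 and 110 in MGT+shNr4a3 and 61 and 44 in MGT+shNT, which is 46.5% and 38.3% of the alpha reads in MGT+shNr4a3 and 58.1% and 36.7% in MGT+shNT. The share was sizeable and overlapped between the groups, but spread over 13 genes it left few counts each. Pcdha11 had the most, with 27 and 34 excess counts in MGT+shNr4a3 and 26 and 13 in MGT+shNT, a log2 fold change of 0.59 (edgeR adjusted p = 0.382). Exons of Pcdha11 lie opposite 2 antisense genes. The C-type Pcdhac2 had 10 and 25 excess counts in MGT+shNr4a3 and 20 and 22 in MGT+shNT, a log2 fold change of -0.30 (edgeR adjusted p = 0.682). The libraries of both genes overlapped. Pcdha11 has the most variable-exon bases of the alpha genes, 7174. Its symbol stands for 2 gene entries in GENCODE M21, so its counts may pool both. Per kilobase of variable exon its mean was 0.1395 CPM in MGT+shNr4a3 and 0.0931 CPM in MGT+shNT. Those of Pcdhac2 were higher, 0.189 CPM in MGT+shNr4a3 and 0.2345 CPM in MGT+shNT. No other alpha gene had enough excess counts to be tested, so 0 of 2 were called by edgeR (0 also at an unadjusted p under 0.05). Pcdha5 had 22 and 4 excess counts in MGT+shNr4a3 and 0 in both MGT+shNT libraries, and was called by DESeq2 (adjusted p = 0.0106) and by edgeR with no filter (adjusted p = 0.0311). Pcdha9 had 6 and 16 in MGT+shNr4a3 and 2 and 4 in MGT+shNT, and Pcdha12 had 10 and 8 in MGT+shNr4a3 and 4 and 1 in MGT+shNT. The other 8 alpha genes had 0 to 8 excess counts in any library. At this depth the choice among alpha promoters was not measurable.

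**Figure D5:**
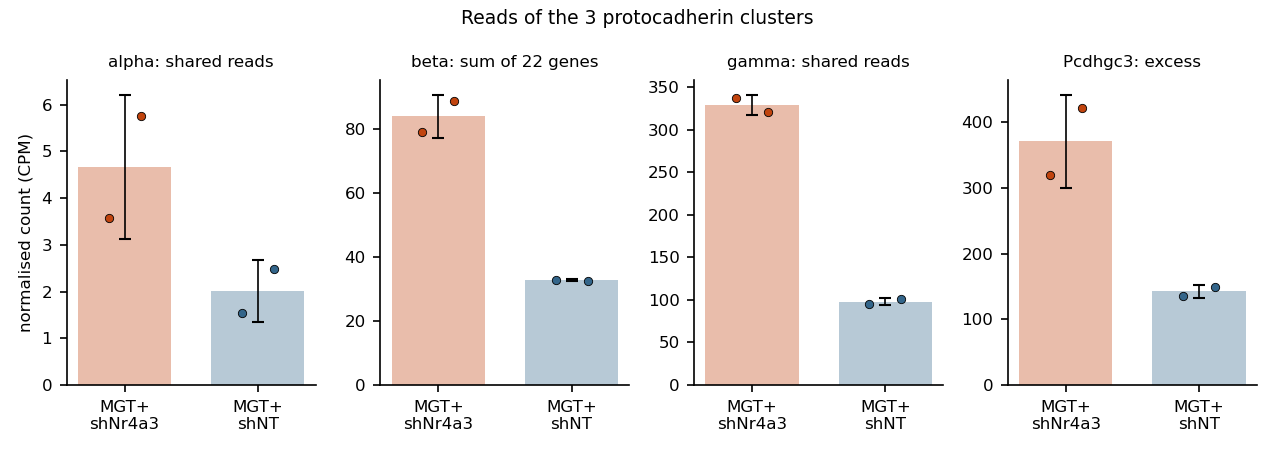
Normalised counts (CPM) of the alpha shared reads, the sum of the 22 beta genes, the gamma shared reads and the Pcdhgc3 excess, with a separate scale in each panel; bars are means, error bars SD and points single libraries (n = 2 each), MGT+shNr4a3 on the left and MGT+shNT on the right. In all 4 panels both MGT+shNr4a3 libraries lie above both MGT+shNT libraries.

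With the shared reads counted once, gamma reads summed to 752 and 861 CPM in MGT+shNr4a3 and 286 and 307 CPM in MGT+shNT, 2.72-fold higher. Alpha reads summed to 6.69 and 9.35 CPM in MGT+shNr4a3 and 3.68 and 3.93 CPM in MGT+shNT, 2.11-fold higher. With the 2.57-fold of the beta genes, the 3 clusters moved the same way by similar factors from very different levels. Differences between the clusters' folds were not tested.

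Genes around the clusters gave no uniform change. Of 38 flanking genes within 1 Mb, leaving out the 3 predicted transcripts with gamma exons, 35 were tested, with 8 called higher, 11 lower and 16 not called, beside 30.7% higher and 29.4% lower of all genes. Their median log2 fold change was 0.07. Zmat2, the nearest gene upstream of the alpha cluster, had 14484 and 12937 counts in MGT+shNr4a3 and 8361 and 8683 counts in MGT+shNT (log2 fold change 0.64, edgeR adjusted p = 1.65e-04). Taf7, a subunit of the general transcription factor TFIID that lies between the beta and gamma clusters, had 978 and 884 counts in MGT+shNr4a3 and 1348 and 1698 counts in MGT+shNT (log2 fold change -0.75, edgeR adjusted p = 4.22e-04). Its neighbour Slc25a2 had 0 counts in both MGT+shNr4a3 libraries and 2 in each MGT+shNT library. Diaph1, an actin-nucleating formin next to the gamma constant exons, had 3386 and 3641 counts in MGT+shNr4a3 and 4929 and 4859 counts in MGT+shNT (log2 fold change -0.52, edgeR adjusted p = 4.75e-04). Genes on either side of the gamma cluster were thus lower while its own reads were higher. Farther away, genes were called in both directions. Hars, the histidyl-tRNA synthetase, and Psd2 were lower, with log2 fold changes of -1.70 (edgeR adjusted p = 9.12e-07) and -2.45 (edgeR adjusted p = 1.50e-05). Nrg2, Cystm1, Hbegf and Ndfip1 were among those called higher, by 1.32 (edgeR adjusted p = 0.0432), 1.04 (edgeR adjusted p = 1.12e-04), 0.87 (edgeR adjusted p = 2.44e-05) and 0.76 (edgeR adjusted p = 2.27e-05) on the log2 scale.

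Protocadherins and large cadherins outside the clusters were mixed. Of the 15 genes in the table, 11 could be tested, with 4 called higher, 1 lower and 6 not called, and a median log2 fold change of 0.37. Their share called higher, 36.4%, was near the 30.7% of all genes. Fat4, a giant cadherin of planar cell polarity, had 2270 and 2715 counts in MGT+shNr4a3 and 270 and 260 counts in MGT+shNT, a log2 fold change of 3.19 (edgeR adjusted p = 1.15e-07). Pcdh9 had 3697 and 4620 counts in MGT+shNr4a3 and 784 and 1089 counts in MGT+shNT, a log2 fold change of 2.11 (edgeR adjusted p = 2.28e-06). Pcdh17 and Pcdh18 were higher by 1.56 and 1.27 on the log2 scale. Dchs2 was called lower (-0.85, edgeR adjusted p = 0.0476), a call that DESeq2 did not make. Pcdh1 and Pcdh7, which were as abundant as many called genes, had log2 fold changes of 0.20 (edgeR adjusted p = 0.169) and -0.04 (edgeR adjusted p = 0.762).

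Genes known to regulate the locus were tested in 18 of 27 cases, the rest not being analysed here. Of them 8 were called higher, 1 lower and 9 not called, with a median log2 fold change of 0.26. That is 44.4% higher, beside 30.7% of all genes. Tet1, an enzyme that oxidises methylated cytosine, had 151 and 188 counts in MGT+shNr4a3 and 40 and 32 counts in MGT+shNT, a log2 fold change of 2.18 (edgeR adjusted p = 1.84e-04). Its relative Tet2 had 1925 and 2592 counts in MGT+shNr4a3 and 919 and 1054 counts in MGT+shNT, a log2 fold change of 1.15 (edgeR adjusted p = 7.12e-05). Rest, the repressor of neuronal genes, and Kdm1a, a histone demethylase that works with it, were higher by 0.80 (edgeR adjusted p = 4.00e-05) and 0.76 (edgeR adjusted p = 5.12e-05). Setdb1, a histone methyltransferase that restrains the cluster in mouse neurons, was the gene called lower (-0.40, edgeR adjusted p = 0.00966). The cohesin subunit Rad21 and the chromatin protein Smchd1, whose loss raises clustered protocadherins in mice, had log2 fold changes of 0.09 (edgeR adjusted p = 0.298) and -0.08 (edgeR adjusted p = 0.469).

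Binding partners and processing enzymes were tested in 21 of 28 cases, with 8 called higher, 7 lower and 6 not called and a median log2 fold change of 0.18. Their share called higher, 38.1%, was near the 30.7% of all genes. The WAVE complex, which drives actin branching and binds the alpha inner domain, had Wasf members called in both directions. Wasf3 had 2939 and 3202 counts in MGT+shNr4a3 and 765 and 669 counts in MGT+shNT, a log2 fold change of 2.05 (edgeR adjusted p = 7.33e-07). Wasf1 had 388 and 430 counts in MGT+shNr4a3 and 156 and 136 counts in MGT+shNT, a log2 fold change of 1.44 (edgeR adjusted p = 8.68e-05). Wasf2 had 1638 and 2044 counts in MGT+shNr4a3 and 3524 and 4203 counts in MGT+shNT, a log2 fold change of -1.11 (edgeR adjusted p = 2.74e-05). Among other subunits of the complex, Nckap1 and Abi2 were called lower, with log2 fold changes of -0.97 (edgeR adjusted p = 5.02e-06) and -0.71 (edgeR adjusted p = 4.57e-04), and Abi1 and Cyfip2 were not called (edgeR adjusted p = 0.857 and 0.0561). Aph1a, a subunit of the gamma-secretase that cleaves these proteins, was higher by 1.38 on the log2 scale (edgeR adjusted p = 2.06e-05). The focal adhesion kinases Ptk2 and Ptk2b, which bind the constant domain, were higher by 0.26 (edgeR adjusted p = 0.0125) and 0.41 (edgeR adjusted p = 0.00166).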

How the data were processed

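The values are raw counts of reads, whole and unscaled, that the authors deposited in 1 table with a column for each of the 4 libraries; no column was left unmapped (0). Per the labels' protocols, ribosomal RNA was removed from total RNA before a stranded, paired-end library preparation, while the molecule label reads polyA RNA. Per the submitters' processing notes, Trimmomatic 0.36, SAMtools, featureCounts of Subread 1.5.1 and build mm10 were used, while aligner, annotation and strand setting are not stated there. The deposited table as analysed covers 16 chromosomes, others were not analysed here, and CPM are relative to its genes. Between 78.4% and 79.8% of counts from 1 to 20 were even, and 65 of the 78 nonzero beta counts, so each read of a pair appears to be counted and low counts hold fewer fragments than reads.

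Exons and strands of the members came from the coordinates in the deposited table. Gene types and antisense genes came from GENCODE M21, whose spans matched those of all 57 members. Counts were fitted with edgeR 4.0.16 (R 4.3.3; TMM, filterByExpr at a count minimum of 10, hairpin as the only term, quasi-likelihood F test) with Benjamini-Hochberg adjustment over all genes at 0.05. Excess counts replaced the alpha and gamma counts in a repeat of that fit over all genes. The script was tested on simulated data. Alternatives were DESeq2 1.42.0, voom in limma 3.58.1, DESeq2 size factors, no filter, each library left out, a block for the replicate number, and, chosen after seeing the data, halved counts. A fit that leaves a group with 1 library assumes that it varies like the other group.

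Members, gene lists and tests were chosen with earlier results of these data known. Named were all beta genes averaging at least 1 CPM, alpha and gamma genes with at least 10 excess counts (at most 12, by mean excess), the genes beside the clusters, and up to 4 called genes of each list; other members are given by range, and genes named beyond this were chosen after their values were seen. Marker lists were neuron, glia, fibroblast (given above), macrophage (8 tested, 0 higher, 5 lower), endothelium (5 tested, 2 higher, 2 lower), mural cell (3 tested, 2 higher, 1 lower), cardiomyocyte (6 tested, 5 higher, 1 lower) and epicardium (5 tested, 2 higher, 1 lower). Of all genes tested, 30.7% were called higher and 29.4% lower. The cardiomyocyte markers summed to 7380 to 8474 CPM in MGT+shNr4a3 and 13200 to 15420 CPM in MGT+shNT. Most of that sum was Tnnt2, the cardiomyocyte marker called lower.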

Additional observations from a re-analysis of the deposited data

How the results depend on the processing

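On excess counts 0 alpha and 9 gamma genes were called higher, against 13 and 22 on deposited counts, since shared reads are then counted only once. With 1 library left out, alpha genes called higher ranged from 1 to 13, beta genes from 9 to 11, flanking genes called higher from 5 to 8, non-clustered protocadherins called lower from 0 to 1 (0 also with DESeq2), locus regulators called lower from 0 to 2, alpha excess counts called higher from 0 to 1 (1 also with DESeq2 and with no filter), gamma excess counts called lower from 0 to 1, and the beta median log2 fold change from 1.23 to 1.73; the cause was not tested. Log2 fold changes with 1 library left out changed sign for Pcdhb13 (-0.12 to 0.60), Pcdhb21 (-0.71 to 0.048), and the excess of Pcdhac2 (-1.09 to 0.20), Pcdhga1 (-0.13 to 0.22) and Pcdhgb1 (-0.18 to 0.61). Over 748 alternatives for single members, 690 kept direction and side of the threshold, 37 lost a call, 15 gained one and 6 reversed. The 748 include the deposited counts of all 13 alpha and 22 gamma genes, which repeat shared reads, so they are not separate checks. The beta count was 8 with DESeq2 and 13 with halved counts (32.2% of all genes). Deviations of libraries with the same replicate number correlated at 0.02, which gives no sign that the numbers pair them. The labels do not say whether they were prepared as pairs, and 2 libraries per group cannot settle it. With a replicate block, beta genes called higher were 13 and gamma excess counts called higher 10. No other count of calls then moved by more than 1.5 times. Depth limits 11 alpha genes, whose excess counts were too low to test, and 5 beta genes, whose counts were.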
